A study of Mus musculus with 6 samples.

Results

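Piezo and TRP channels open when a cell membrane is stretched, sheared or pressed, or act closely downstream of channels that do, and let cations into the cell. The transcripts of 9 such channels, Piezo1, Piezo2, Trpv2, Trpv4, Trpm4, Trpm7, Trpc1, Trpc6 and Tmem63b, were described in mouse cardiac fibroblasts with and without deletion of Tet3, which codes for an enzyme that oxidises 5-methylcytosine in DNA. They were taken by symbol from a table of 22063 genes, all 9 were found, and all 9 had enough reads to be tested. The set mixes channels gated by force themselves (the Piezo proteins and TMEM63B) with TRP channels for which a direct response to force is debated.

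All cells were primary cardiac fibroblasts with floxed Tet3 alleles (Tet3 fl/fl), in which Cre recombinase excises the DNA between the loxP sites. Per the study's methods, 1 group received an adenovirus coding for green fluorescent protein (Ad-GFP, here GFP, labelled as control) and the other an adenovirus coding for Cre (Ad-Cre, here CRE, labelled as Tet3 knockout), and both were then treated with TGF-β at 5 ng/ml for 24 h. Each group held 3 libraries of poly(A) RNA. Cells without TGF-β and cells that lack loxP sites but received Cre were not analysed here, so a response to Cre itself and one to the loss of Tet3 cannot be told apart, and neither the age of the mice nor whether replicates came from separate animals is given in the sources used here.

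Piezo1 and Piezo2 each form a large three-bladed homotrimer whose central pore opens when the membrane flattens, and calcium that enters through it can feed calcineurin and NFAT, calmodulin-dependent kinases and calpains. TRP channels are tetramers grouped into TRPV, TRPM and TRPC branches, and several of them conduct calcium downstream of G protein coupled receptors and phospholipase C. In cardiac fibroblasts, Piezo1, TRPV4, TRPC6 and TRPM7 have each been linked to the turn towards contractile, matrix-producing myofibroblasts.

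Among the 9 channels, Piezo2 fell most and Trpv4 rose most in CRE relative to GFP. Counts per gene were scaled to the size of the library (CPM, the normalized read count, corrected for composition by the TMM method) and tested with edgeR's quasi-likelihood test, two-sided, with Benjamini-Hochberg adjustment over the 12862 genes that had enough counts. At an adjusted p under 0.05, 5 of the 9 channels (Piezo1, Piezo2, Trpv2, Trpm7, Trpc6) were lower in CRE, 3 (Trpv4, Trpm4, Tmem63b) were higher, and Trpc1 did not pass. Changes were common in these cells: 51.2% of all tested genes passed, 25.5% higher and 25.7% lower in CRE. The GFP and CRE libraries did not overlap in CPM for any of the 9 channels, nor for 59.6% of all tested genes. The median log2 fold change was -0.23 over the 9 channels and 0.01 over all tested genes.

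The deposited totals were between 17002126 and 20343590 counts per library, at which 3 counts, the limit that a count of 0 allows, correspond to between 0.156 and 0.187 CPM (counting error only). Without the TMM correction, on library size alone, the median of all genes moved up by 0.16 on the log2 scale, and 72.6% of the genes that passed were higher in CRE in place of 49.8%. All 9 channels kept their direction on that scale, with Piezo2 at a log2 fold change of -1.22, Trpv4 at 1.86 and Trpm7 no longer past the threshold. Tet3 itself had 1044, 965 and 1000 counts in GFP and 642, 649 and 637 in CRE, or 57.1 ± 6.88 and 34.7 ± 1.17 CPM (SD, n = 3), which is a log2 fold change of -0.72 (SE 0.08, edgeR adjusted p = 5.36e-05). The CRE libraries thus held 60.8% of the Tet3 level of the GFP libraries, and the table gives whole-gene counts, so whether the rest came from cells that kept the exons or from shortened transcripts was not tested.

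**Figure D1:**
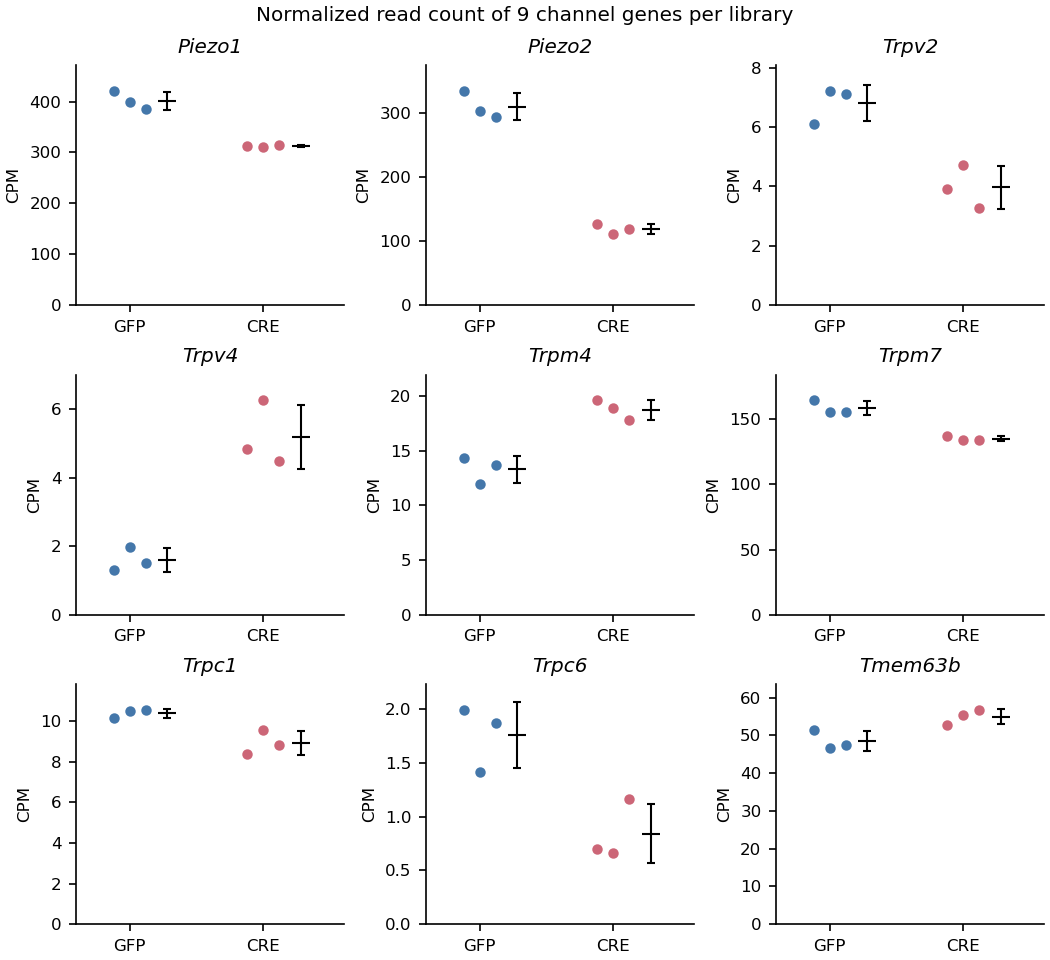
Normalized read count (CPM, y axis from 0) of the 9 channels in the 3 GFP and the 3 CRE libraries (x axis), with 1 point per library and the mean ± SD beside the points. Piezo2 dropped from 310.2 to 118.9 CPM and Trpv4 rose from 1.595 to 5.19 CPM, and no channel's GFP points overlap its CRE points.

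The sequence just upstream of the transcription start is shown for 3 channels, since TET3 acts on methylated CpG. The 3 were chosen to span low and high CpG content and both directions. A relation between CpG content and direction was not tested. The windows are the 250 bases before the start in RefSeq (GRCm38.p6, the build of the deposited table), read 5′ to 3′ on the gene's own strand, with every CpG in capitals. They are those of Piezo1 (chr8:122551330-122551579, minus strand), Trpv4 (chr5:114658422-114658671, minus strand) and the first of 3 annotated starts of Trpv2 (chr11:62574236-62574485, plus strand).
Piezo1: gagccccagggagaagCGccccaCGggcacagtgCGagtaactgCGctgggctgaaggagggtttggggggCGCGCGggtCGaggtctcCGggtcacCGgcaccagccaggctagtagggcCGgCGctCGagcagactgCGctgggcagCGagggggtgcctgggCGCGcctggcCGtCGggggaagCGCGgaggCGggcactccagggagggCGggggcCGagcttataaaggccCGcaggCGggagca
Trpv4: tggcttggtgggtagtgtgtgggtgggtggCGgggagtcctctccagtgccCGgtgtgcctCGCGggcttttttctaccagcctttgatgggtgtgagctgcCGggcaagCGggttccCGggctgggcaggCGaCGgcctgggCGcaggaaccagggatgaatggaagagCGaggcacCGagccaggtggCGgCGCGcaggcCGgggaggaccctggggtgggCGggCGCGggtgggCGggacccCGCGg
Trpv2: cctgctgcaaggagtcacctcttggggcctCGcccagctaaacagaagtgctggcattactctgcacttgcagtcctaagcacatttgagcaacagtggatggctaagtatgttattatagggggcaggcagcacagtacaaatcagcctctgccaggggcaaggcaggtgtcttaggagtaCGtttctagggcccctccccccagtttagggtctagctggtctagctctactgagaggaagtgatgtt

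The Piezo1 window held 26 CpG and the Trpv4 window 22, counts that 9.59% and 14.8% of 32851 mouse promoter windows of the same length reach or pass. The Trpv2 window held 2 CpG, at least as many as 29.0% of windows, and its other annotated starts held 2 and 5. The median window held 6. Of the 4 other channels with a window, Tmem63b held 31 CpG, Trpm7 26, Trpc1 17 and Trpc6 12. Piezo2 and Trpm4 have no window here. DNA methylation was not measured in these libraries. Motifs were searched on both strands, GGAATG for TEAD factors, TGANTCA for AP-1, CAGAC for SMAD factors and the CArG box of SRF by its usual form. Of the 7 channels, 1 window held a CArG box (Trpc6, as do 1.47% of all windows), 1 of the Trpv2 starts held the TEAD motif (12.6%), Piezo1, Trpc1, Trpc6 and Trpm7 held 1 CAGAC each (42.2%), and the AP-1 motif, which 6.75% of windows hold, was not among these letters.

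Piezo2, the low-threshold channel of touch and proprioception, lies on chromosome 18 (63010213 to 63387183, minus strand, GRCm38), a gene of 376971 bases. It was counted 5379, 5374 and 5641 times in GFP and 2364, 1999 and 2251 times in CRE. The level was 334.4, 302.9 and 293.1 CPM in GFP and 127.0, 110.7 and 118.9 CPM in CRE, so the highest CRE library stood at less than the lowest GFP library by a wide margin. On average CRE held 38.3% of the GFP level (310.2 ± 21.6 and 118.9 ± 8.15 CPM, SD, n = 3), which is a log2 fold change of -1.38 (SE 0.07, 95% confidence interval -1.53 to -1.24, edgeR adjusted p = 2.97e-07). Of all tested genes, 2.16% had a log2 fold change as low. The study chose Piezo2 for follow-up partly on these libraries, so its fall here is not independent evidence of its direction.

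Piezo1, the widely expressed family member that senses shear and stretch, lies on chromosome 8 (122481698 to 122551329, minus strand). Its level was 420.8, 399.2 and 385.0 CPM in GFP and 313.0, 311.2 and 314.0 CPM in CRE. All GFP libraries were higher than all CRE libraries, which lay within 3 CPM of each other. Piezo1 fell to 77.9% of the GFP level (401.7 ± 18.0 to 312.7 ± 1.43 CPM, SD, n = 3), which is a log2 fold change of -0.36 (SE 0.04, edgeR adjusted p = 9.74e-05). The size of the fall depended on the scaling. On library size alone the log2 fold change was -0.20 (edgeR adjusted p = 0.00321), and with limma on log2(FPKM + 0.1) it was also -0.20 (adjusted p = 0.00835). Piezo1 overlaps Ctu2 on the other strand and strand use in the counting is not stated. Ctu2 was counted 146 to 172 times per library and Piezo1 5619 to 7410 times, and Ctu2 had a log2 fold change of 0.06 (SE 0.12, edgeR adjusted p = 0.708). The part of reads shared with Ctu2 in the Piezo1 counts was not tested.

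Within a library, the ratio of Piezo2 to Piezo1 counts does not depend on library scaling. It was 0.795, 0.759 and 0.761 in GFP and 0.406, 0.356 and 0.379 in CRE. The ratio thus dropped 2.03-fold, by 1.02 on the log2 scale, and its groups did not overlap. The exact permutation test over the 6 libraries, two-sided, gave p = 0.1, the smallest that 3 against 3 can give, for this pair and for the 3 pairs described further on (adjusted p = 0.1 over the 4 pairs). All 3 CRE ratios lay under all 3 GFP ratios, and with 3 against 3 libraries the permutation test cannot go under that p.

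**Figure D2:**
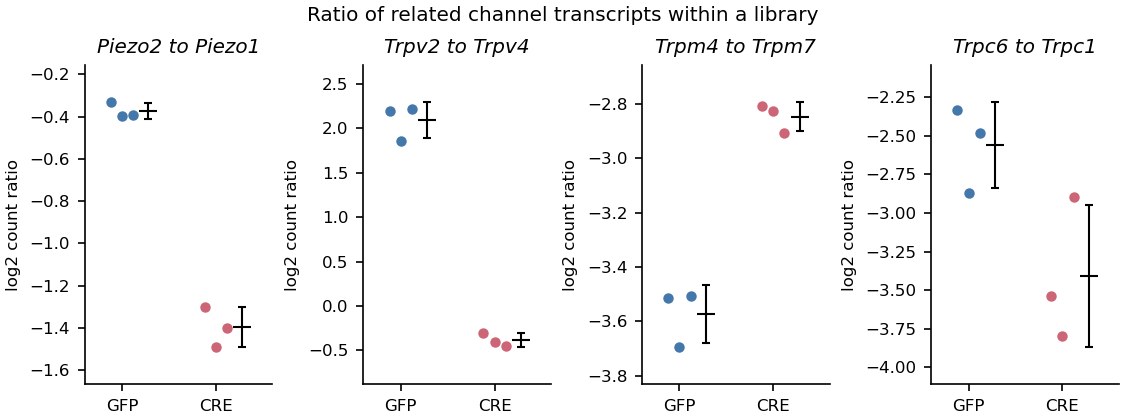
Log2 ratio of the counts of 2 related channels within each library (y axis, 0.5 added to each count; each panel has its own range and does not start at 0), for 3 GFP and 3 CRE libraries, with the mean ± SD beside the points. The Piezo2 to Piezo1 and Trpv2 to Trpv4 ratios differed by -1.02 and -2.48 between the groups, the Trpc6 to Trpc1 ratio by -0.85 and the Trpm4 to Trpm7 ratio by 0.73, each with groups that do not overlap.

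The TRPV pair moved in opposite directions. Trpv4, a calcium-permeable channel opened by cell swelling, warmth and arachidonic acid products, lies on chromosome 5 (114622152 to 114658421, minus strand). It was counted 21, 35 and 29 times in GFP and 90, 113 and 85 times in CRE. Every CRE library was above every GFP library although the counts were low. The level rose 3.26-fold, from 1.595 ± 0.342 to 5.19 ± 0.938 CPM (SD, n = 3), which is a log2 fold change of 1.69 (SE 0.22, 95% confidence interval 1.21 to 2.17, edgeR adjusted p = 0.000111). Of all tested genes, 1.17% had a log2 fold change as high.

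Trpv2, a channel linked to stretch responses and to growth factor driven traffic to the membrane, lies on chromosome 11 (62574486 to 62600515, plus strand). It was counted 98, 128 and 137 times in GFP and 73, 85 and 62 times in CRE. In CPM this was 6.09, 7.22 and 7.12 against 3.92, 4.71 and 3.27, with no overlap. Trpv2 fell to 58.3% of the GFP level, which is a log2 fold change of -0.78 (SE 0.16, edgeR adjusted p = 0.00217). The ratio of Trpv2 to Trpv4 counts was 4.58, 3.62 and 4.66 in GFP and 0.812, 0.753 and 0.731 in CRE (0.5 added to each count). Trpv2 was thus counted more often than Trpv4 in every GFP library and less often in every CRE library, a 5.57-fold drop of the ratio (exact permutation p = 0.1, the smallest possible).

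The TRPM pair differ in what they conduct. TRPM4 passes sodium and potassium but no calcium, and is opened by calcium from within, whereas TRPM7 is a magnesium- and calcium-permeable channel fused to a kinase. Trpm4 (chromosome 7, 45302632 to 45333780, minus strand) was at 14.4, 11.95 and 13.7 CPM in GFP and at 19.6, 18.9 and 17.8 CPM in CRE. It rose in all CRE libraries relative to all GFP libraries, from 13.3 ± 1.24 to 18.8 ± 0.914 CPM (SD, n = 3), which is a log2 fold change of 0.49 (SE 0.09, edgeR adjusted p = 0.00121).

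Trpm7 (chromosome 2, 126791565 to 126876230, minus strand), the best expressed TRP channel of the set, was at 164.4, 155.2 and 155.8 CPM in GFP and at 137.4, 134.1 and 133.7 CPM in CRE. The groups were separate but close, and Trpm7 fell to 85.2% of the GFP level (log2 fold change -0.23, SE 0.04, edgeR adjusted p = 0.00147). This call depended on the scaling: on library size alone the log2 fold change was -0.07 (adjusted p = 0.200), and with limma on log2(FPKM + 0.1) it was also -0.07 (adjusted p = 0.278). The Trpm4 to Trpm7 count ratio, which no scaling touches, was 0.0875, 0.0771 and 0.0879 in GFP and 0.143, 0.141 and 0.133 in CRE, a rise of 0.73 on the log2 scale (exact permutation p = 0.1, the smallest possible).

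Trpc6 and Trpc1 are receptor-operated channels. TRPC6 is opened by diacylglycerol and is tied to calcineurin and NFAT signalling, and TRPC1 mostly works in complexes with other TRPC subunits and with store-operated channels. Trpc6 (chromosome 9, 8544142 to 8680741, plus strand) was scarce, with 32, 25 and 36 counts in GFP and 13, 12 and 22 in CRE. The lowest GFP library and the highest CRE library were only a few counts apart. The level went from 1.76 ± 0.307 to 0.842 ± 0.278 CPM (SD, n = 3), which is a log2 fold change of -1.05 (SE 0.30, edgeR adjusted p = 0.0148). This call was lost without GFP replicate 3, CRE replicate 1 or CRE replicate 2, with log2 fold changes of -0.999, -0.93 and -0.90 and an adjusted p of at most 0.0576.

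Trpc1 (chromosome 9, 95705082 to 95750375, minus strand) was at 10.1, 10.5 and 10.5 CPM in GFP and at 8.38, 9.58 and 8.82 CPM in CRE. Every CRE library was below every GFP library, but the difference did not pass the threshold (log2 fold change -0.22, SE 0.10, 95% confidence interval -0.44 to -0.0016, unadjusted p = 0.0486 and adjusted p = 0.0857 with edgeR). No other fit of 16 called it either. The Trpc6 to Trpc1 ratio was 0.199, 0.137 and 0.179 in GFP and 0.0863, 0.0720 and 0.134 in CRE, with only a narrow gap between the groups (log2 difference -0.85, exact permutation p = 0.1, the smallest possible).

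Tmem63b, a member of the OSCA/TMEM63 family of force- and osmolarity-gated channels, lies on chromosome 17 (45660171 to 45686905, minus strand). It was at 51.5, 46.5 and 47.4 CPM in GFP and at 52.7, 55.4 and 56.7 CPM in CRE. The gap between the groups was small, and the mean went from 48.5 ± 2.65 to 54.9 ± 2.04 CPM (SD, n = 3), which is a log2 fold change of 0.18 (SE 0.06, edgeR adjusted p = 0.0216). The call was lost with DESeq2 (adjusted p = 0.0546) and without GFP replicate 2 or 3 or CRE replicate 2 or 3, with log2 fold changes between 0.15 and 0.18 and an adjusted p of at most 0.0754. On library size alone its log2 fold change was 0.34 (adjusted p = 0.000515). Tmem63b overlaps Mrpl14 on the other strand, which was counted 117 to 171 times per library and had a log2 fold change of 0.21 (SE 0.12, edgeR adjusted p = 0.168).

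**Figure D3:**
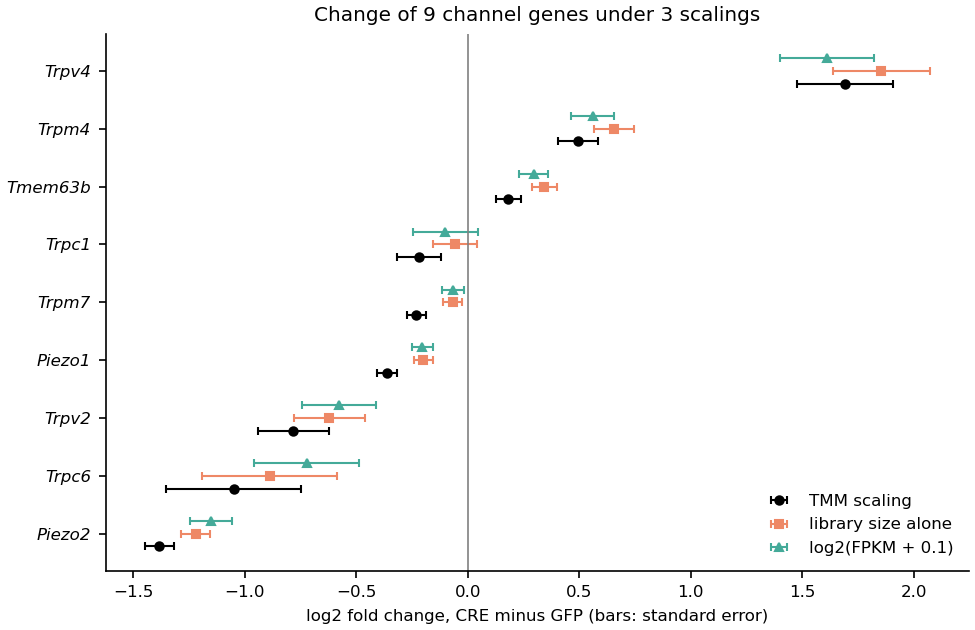
Log2 fold change, CRE minus GFP (x axis, bars are standard errors), of the 9 channels (y axis) under TMM scaling (the main values), on library size alone and with limma on log2(FPKM + 0.1). All points of a channel lie on the same side of 0, and Trpm7 and Trpc1 move closest to 0, from -0.23 and -0.22 under TMM scaling to -0.07 and -0.06 on library size alone, while Tmem63b moves away from it, from 0.18 to 0.34.

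To set the channels against each other, levels are given per length, as the FPKM that were deposited beside the counts (fragments per kilobase, scaled to the mapped fragments of the library). In GFP the order of mean FPKM was Piezo2 (53.9 ± 6.69, SD, n = 3), Piezo1 (47.5 ± 2.31), Trpm7 (21.1 ± 0.637), Tmem63b (14.9 ± 0.843), Trpm4 (3.61 ± 0.293), Trpc1 (2.65 ± 0.495), Trpv2 (2.22 ± 0.195), Trpc6 (0.516 ± 0.0910) and Trpv4 (0.502 ± 0.112). Neighbours within the larger SD of each other were Piezo2 and Piezo1, Trpc1 and Trpv2, and Trpc6 and Trpv4. In CRE the order was Piezo1 (41.2 ± 0.648), Piezo2 (24.2 ± 2.05), Trpm7 (20.2 ± 0.236), Tmem63b (18.3 ± 0.882), Trpm4 (5.36 ± 0.194), Trpc1 (2.44 ± 0.0928), Trpv4 (1.74 ± 0.383), Trpv2 (1.47 ± 0.285) and Trpc6 (0.277 ± 0.0872), where only Trpv4 and Trpv2 were within the larger SD. Trpv4 thus moved from the ninth to the seventh place and Piezo2 from the first to the second. In FPKM the Trpc1 libraries of the groups overlapped, at 2.23 to 3.19 in GFP and 2.37 to 2.54 in CRE.

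The first place of Piezo2 in GFP rests on the length used. The deposited counts and FPKM imply a Piezo2 length of 5.46 kb in GFP, which is 50.9% of its longest annotated coding transcript (10.724 kb), whereas for the other 8 channels the implied length was between 82.5% and 99.7% of the longest. Per kilobase of the longest coding transcript, a scale added after the values were seen, Piezo1 led in both groups, with 48.9 ± 2.19 CPM per kb in GFP and 38.0 ± 0.174 in CRE, and Piezo2 had 28.9 ± 2.01 and 11.1 ± 0.760. On that scale Piezo2 went from the second place in GFP to the fourth in CRE, under Trpm7 (19.0 ± 0.281) and Tmem63b (16.7 ± 0.623). Which Piezo2 isoforms the cells made was not tested. The implied length itself moved little between groups, with a CRE to GFP ratio between 0.954 and 1.06 over the 9 channels, close to the range of most genes (0.945 to 1.06 from the 5th to the 95th percentile of 9419 genes). For Tet3 the implied length was 8.98 kb in GFP and 10.5 kb in CRE, a ratio of 1.17, outside that range. Which Tet3 transcripts make this difference was not tested.

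**Figure D4:**
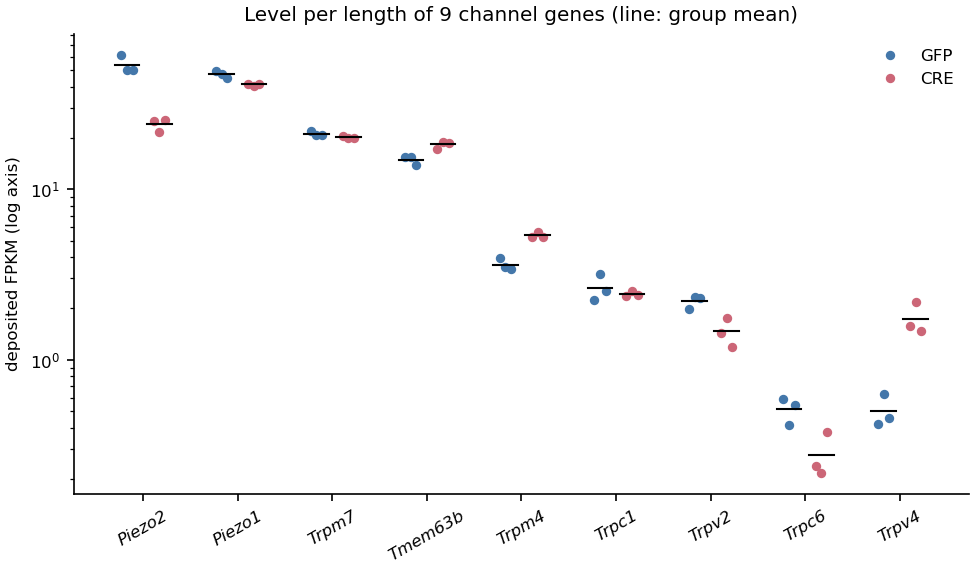
Deposited FPKM (y axis, log scale) of the 9 channels (x axis, ordered by the GFP mean) in each GFP and CRE library, with a line at each group mean. Both Piezo genes, Trpm7 and Tmem63b lie above 10 FPKM in all libraries and the other 5 below 6 FPKM, and Trpv4 is the only one of the low 5 to rise by more than 3-fold.

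Of the FPKM of the pair, Piezo2 made up 53.0 ± 2.07% in GFP and 36.9 ± 1.65% in CRE (SD, n = 3). Both Piezo genes together made up 69.0 ± 1.41% of the FPKM summed over the 9 channels in GFP and 56.8 ± 1.68% in CRE. That sum fell from 146.9 ± 9.74 to 115.1 ± 1.47 FPKM. These shares carry the same dependence on the Piezo2 length as the order of levels. Per kilobase of the longest coding transcript, Piezo2 was the smaller part of the pair in both groups. There Piezo2 and Piezo1 had 28.9 and 48.9 CPM per kb in GFP and 11.1 and 38.0 in CRE.

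The libraries were checked for other cell types, since endothelial cells also carry Piezo1, Trpv4 and Trpc6, and sensory neurons are a known site of Piezo2. In bulk samples, fewer cells of a type and less RNA per cell cannot be told apart. All 10 fibroblast markers were expressed, at a summed level of 30207 to 31510 CPM in GFP and 18869 to 20309 CPM in CRE, and 9 of the 10 fell while Thy1 did not pass (26.4 and 24.7 CPM). Of 15 endothelial markers, none was at 0 in every library, 11 fell, among them Vwf (log2 fold change -1.74, SE 0.13), and Eng and Ly6c1 rose. Their summed level was 1080 to 1138 CPM in GFP and 1009 to 1060 in CRE, most of it Eng, and without Eng, left out after its values were seen, it was 449.2 to 497.7 and 232.9 to 260.2 CPM. Of the tested fibroblast and endothelial markers 90.0% and 86.7% passed, beside 51.2% of all tested genes.

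Of 9 macrophage markers, 3 fell, at sums of 59.1 to 66.5 CPM in GFP and 35.0 to 38.5 in CRE, none of them at 0 in every library. Of 11 smooth muscle and pericyte markers, 5 fell and Cspg4 rose, at sums of 175.3 to 194.8 and 143.4 to 163.8 CPM, again with none at 0 throughout. Of 10 Schwann cell and neuron markers, Calca was at 0 in every library and Tubb3 rose, at sums of 44.1 to 46.8 and 53.0 to 64.3 CPM. Of 12 cardiomyocyte markers, Myh6 and Myl7 were at 0 in every library and the list summed to 0.958 to 1.30 CPM in GFP and 2.06 to 3.06 in CRE, with Nppb the only one tested and higher in CRE. The part of these cell types in the changes of the channels was not tested.

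Most other TRP genes had few counts. Of 22 other TRP genes in the table, 5 had enough counts to be tested, and Trpc2 and Trpc5 had no count in any library. Pkd2, the polycystin channel of cilia and the endoplasmic reticulum, fell from 397.1 ± 10.2 to 270.7 ± 8.88 CPM (log2 fold change -0.55, SE 0.04, edgeR adjusted p = 5.73e-06). Trpm6, the magnesium channel related to Trpm7, fell from 2.09 ± 0.160 to 1.08 ± 0.182 CPM (log2 fold change -0.95, SE 0.24, edgeR adjusted p = 0.00769), a call lost with limma on log2(FPKM + 1) (log2 fold change -0.24, adjusted p = 0.0595). Trpm3, Mcoln1 and Pkd2l2 did not pass, with log2 fold changes of 0.57, 0.09 and 0.16. The median over the 5 was 0.09, and 40.0% of them passed, beside 51.2% of all tested genes.

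Of 25 other channels gated by force or cell volume, 16 were tested, 2 rose and 3 fell, and their median log2 fold change was -0.09. Together 31.25% of the 16 passed, beside 51.2% of all tested genes. Without GFP replicate 3 the number that fell was 5, and without GFP replicate 2 it was 2. Panx1, a pore that releases ATP, rose from 34.8 ± 1.73 to 50.2 ± 3.36 CPM (log2 fold change 0.53, SE 0.07, edgeR adjusted p = 9.57e-05). Tmem87a, named in mechanically evoked currents, rose by 0.39 (SE 0.06) on the log2 scale. Gja1, the gap junction protein connexin 43, fell from 153.1 ± 6.11 to 103.6 ± 2.82 CPM (log2 fold change -0.56, SE 0.05, edgeR adjusted p = 7.68e-06). Of the volume-regulated anion channel subunits, Lrrc8e (log2 fold change -0.80, SE 0.21) and Lrrc8b (-0.28, SE 0.09) fell, and the obligatory subunit Lrrc8a did not pass (0.05, SE 0.06). The Lrrc8b call was lost in 6 of 16 other fits, on library size alone, in both FPKM fits and without GFP replicate 2, CRE replicate 2 or CRE replicate 3. On library size alone, 5 genes of this list were higher and 2 lower. Tmem63a, the paralog of Tmem63b, was at 72.3 and 73.2 CPM, and Pkd1, the partner of Pkd2, at 442.9 and 425.7 CPM, and neither passed (log2 fold changes of 0.02 and -0.06).

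Partners and regulators of the channels moved in both directions. Of 25 genes, 22 were tested, 7 rose and 9 fell, with a median of -0.04. Together 72.7% of the 22 passed, beside 51.2% of all tested genes. Without GFP replicate 2 or GFP replicate 3 only 4 rose, with 8 and 7 that fell. Among those that rose, Homer1, a scaffold that holds TRPC channels to inositol trisphosphate receptors, went from 27.3 ± 0.438 to 50.03 ± 3.34 CPM (log2 fold change 0.87, SE 0.06, edgeR adjusted p = 3.00e-06). The store-operated pair of the calcium sensor Stim1 (log2 fold change 0.53, SE 0.05) and the pore Orai1 (0.52, SE 0.10) also rose, while Orai2 (-0.20, SE 0.07) fell in a call that 7 of 16 other fits shared, and Orai3 did not pass (0.00, SE 0.09).

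Among those that fell, Cav1, the caveolar coat protein, went from 45.7 ± 1.15 to 23.9 ± 2.42 CPM (log2 fold change -0.93, SE 0.07, edgeR adjusted p = 5.41e-06). Pacsin3, a membrane-bending protein that binds the TRPV4 amino terminus, went from 24.7 ± 0.528 to 13.4 ± 0.567 CPM (log2 fold change -0.88, SE 0.07, edgeR adjusted p = 6.42e-06), opposite in direction to Trpv4. Abcc9, a sulfonylurea receptor whose relative Abcc8 pairs with TRPM4 and which is also a pericyte marker, fell from 1.97 to 0.937 CPM, a call lost in both FPKM fits and without GFP replicate 3. The Piezo auxiliary subunit gene Mdfic did not pass (204.0 and 200.5 CPM), and its relative Mdfi rose from 7.48 to 9.76 CPM (log2 fold change 0.39, SE 0.13), a call lost with DESeq2 and without GFP replicate 2 or 3 or CRE replicate 1 or 2. On library size alone, 10 genes of this list were higher and 6 lower.

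Of 26 genes that act on incoming calcium, 25 were tested, 5 rose and 9 fell, with a median of -0.03. Together 56.0% of the 25 passed, close to the 51.2% of all tested genes. The number that rose was 8 without GFP replicate 1 and 3 without GFP replicate 2 or GFP replicate 3. Rcan1, a calcineurin inhibitor that calcineurin and NFAT themselves induce, rose from 16.2 ± 0.947 to 27.0 ± 0.984 CPM (log2 fold change 0.74, SE 0.07, edgeR adjusted p = 2.09e-05). Camk2g (log2 fold change 0.25, SE 0.05) and Hdac5 (0.22, SE 0.07), a calmodulin-dependent kinase and a histone deacetylase that such kinases phosphorylate, rose as well, the latter call being lost with DESeq2 and without GFP replicate 2 or 3 or CRE replicate 1 or 2. Camk2d, a kinase of the same family as Camk2g, fell from 83.8 ± 1.22 to 63.6 ± 1.92 CPM (log2 fold change -0.40, SE 0.05, edgeR adjusted p = 5.36e-05). Nos3, the calcium-dependent nitric oxide synthase of endothelial cells, fell from 6.54 ± 1.30 to 1.39 ± 0.456 CPM (log2 fold change -2.23, SE 0.25, edgeR adjusted p = 4.61e-05). Camkk2 fell by 0.66 (SE 0.07) on the log2 scale and the transcription factor Mef2d by 0.45 (SE 0.05), while its relative Mef2a rose (log2 fold change 0.15, SE 0.05), a call lost without GFP replicate 2, GFP replicate 3 or CRE replicate 1. The calcineurin subunits Ppp3ca and Ppp3cb fell too, with log2 fold changes of -0.22 and -0.37, the former call being lost on library size alone and in both FPKM fits, and Ppp3cc and Ppp3r1 did not pass (0.25 and 0.03). Of the NFAT genes that calcineurin activates, Nfatc3 rose from 128.0 ± 2.30 to 144.2 ± 4.56 CPM (log2 fold change 0.17, SE 0.04, edgeR adjusted p = 0.00819), and Nfatc1 and Nfatc4 did not pass (0.03 and -0.03). On library size alone, 11 genes of this list were higher and 8 lower.

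**Figure D5:**
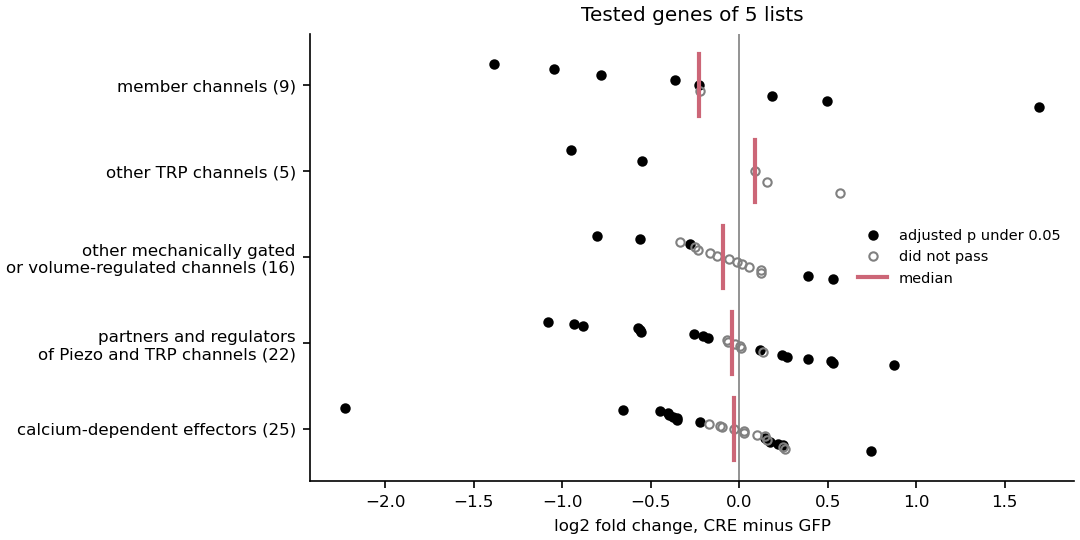
Log2 fold change, CRE minus GFP (x axis), of each tested gene of the 9 channels and of 4 lists of related genes (y axis, number tested in brackets), filled where the edgeR adjusted p was under 0.05, with a bar at the median. Genes of every list lie on both sides of 0, the 9 channels have a median of -0.23 and the 4 lists between -0.09 and 0.09.

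Genes whose level followed that of Piezo2 most closely over the 6 libraries were sought by Pearson's r on log2 CPM, among 8807 genes with a symbol and a mean of at least 10 CPM. The 5 highest were Fdft1, squalene synthase (r = 0.9996), Numa1, a spindle pole protein (0.9994), Fn1, fibronectin (0.9994), Cd200, a membrane glycoprotein (0.9993), and Itgbl1, an integrin beta-like matrix protein (0.9991). The measure mostly sees the difference between the groups, since 1254 genes had r above 0.95. Fn1 went from 16137 ± 1067 to 7301 ± 373.7 CPM (log2 fold change -1.14, SE 0.05), Fdft1 from 136.0 ± 8.67 to 64.2 ± 2.74 CPM (-1.08, SE 0.06) and Itgbl1 from 50.02 ± 5.24 to 16.1 ± 1.20 CPM (-1.64, SE 0.09). Among the other 8 channels r with Piezo2 was highest for Piezo1 (0.9899) and Trpm7 (0.9867) and lowest for Trpv4 (-0.9799), as a description over 6 libraries that share the 2 groups.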

How the data were processed

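Poly(A) RNA of 6 libraries was sequenced by the authors. The titles gave each library's group and number, and the study's methods gave the virus, dose and time. By those methods, the authors used Trimmomatic, aligned with HISAT2 to GRCm38 (the build in the submitters' processing notes), and deposited raw read counts per gene from HTSeq-count and FPKM from Cufflinks. Tool versions and strand use are not given in the sources used here, and the labels and methods name different extraction and library kits. The deposited comparison columns (group means, fold change, p-value, false discovery rate) were not used.

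The counts were tested with edgeR 4.0.16 in R 4.3.3, where the study used DESeq. filterByExpr (minimum count 10, minimum total 15) left 12862 genes. TMM factors ranged from 0.944 to 0.947 in GFP and from 1.05 to 1.06 in CRE. SE values are the size of the log2 fold change over the root of F. Fitted fold changes of genes with few counts depend on the prior count. As alternatives, scaling was by RLE, by upper quartile or by library size alone, the filter was 1 count in all or 10 in each library, the tool was DESeq2 1.42.0 or limma 3.58.1 (voom, log2(FPKM + 1), log2(FPKM + 0.1)), the replicate number was a block, or 1 library was left out. A level per kilobase of the longest transcript and an endothelial sum without Eng were added after the values were seen.

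A legend of the study speaks of biological replicates, but neither it nor the labels say whether these were separate cultures or animals. P-values measure the spread between these libraries, part of which may be technical. Replicates differed beyond counting noise (chi-square over its degrees of freedom 4.09 to 12.3). The members and lists were chosen with earlier results of these data known. Genes are named as follows: the 9 channels and Tet3; in each other list, of the genes past an adjusted p of 0.05 that averaged 1 CPM or more without overlap between groups, up to 3 with the highest and 3 with the lowest log2 fold change; and the 5 most like Piezo2. Others were named after their values were seen. Some results under this rule are not reported here. Positions and lengths are from GENCODE M21. Promoter windows, matched by symbol for 7 of the 9 channels, are from RefSeq.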

Additional observations from a re-analysis of the deposited data

How the results depend on the processing

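Over 16 other fits, Piezo1, Piezo2, Trpv2, Trpv4, Trpm4 and Tet3 kept their direction and stayed past the threshold, with log2 fold changes of -0.39 to -0.20, -1.43 to -1.12, -0.92 to -0.39, 0.86 to 1.87, 0.42 to 0.66 and -0.78 to -0.55. Between 6 and 8 of the 9 channels passed, 6 without GFP replicate 3 or CRE replicate 2. None of the named genes that passed the threshold changed direction in any fit. Of 29 further genes named beside them, 9 changed direction in at least 1 fit, none of which had passed (Lrrc8a, Tmem63a, Pkd1, Orai3, Mdfic, Nfatc1, Nfatc4, Thy1 and Ctu2).

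The Piezo2 to Piezo1 ratio moved from -1.02 to -0.95 on the log2 scale with the deposited FPKM, and the Trpv2 to Trpv4 ratio from -2.48 to -2.29 with 5 in place of 0.5 added to each count, by their own construction. Per length, log2 of Piezo2 over Piezo1 was 0.18 in GFP with the deposited FPKM and -0.76 per kilobase of the longest coding transcript, and -0.77 and -1.78 in CRE. This reversal in GFP comes from the length used.

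Deviations of libraries of the same number correlated at r of 0.046, 0.18 and -0.018. Only the pair of replicates 2 was above 0.1, so the numbers were not taken as pairs. With the replicate block, 8 of the 9 channels passed as before, and over all genes 3260 were higher and 3373 lower.

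Depth limits Trpc6, Trpv4 and Trpv2 most, with 12 to 137 counts per library. With no filter beyond 1 count, 20 of the 22 other TRP genes were tested in place of 5, and 1 was higher and 2 lower.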

Other observations

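Beyond the channels themselves, the table's own annotation lists 84 genes with calcium channel activity, 6 of the 9 channels among them. Of these, 40 were tested, 11 rose and 16 fell (14 and 9 on library size alone), with a median log2 fold change of -0.13. In the main fit 67.5% of the 40 passed, beside 51.2% of all tested genes. Without CRE replicate 1, 9 rose and 10 fell. Gpm6a, a neuronal membrane glycoprotein, fell from 10.7 ± 0.909 to 2.47 ± 0.786 CPM (log2 fold change -2.11, SE 0.19, edgeR adjusted p = 1.05e-05, n = 3), and Grin1, an NMDA receptor subunit, from 2.07 to 0.869 CPM (-1.25, SE 0.31). Cacna1a, the pore of P/Q-type calcium channels, rose from 2.61 ± 0.377 to 5.19 ± 0.576 CPM (0.99, SE 0.17, edgeR adjusted p = 0.000827). Of the 10 genes annotated with mechanosensitive channel activity, 5 were tested, of which Piezo1, Piezo2 and Tmem63b (the last not without GFP replicate 2 or 3 or CRE replicate 2 or 3) passed and Tmem63a and Tmc7 did not (0.02 and 0.12). The share that passed was 60.0%, beside 51.2% of all tested genes.

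The pathway of inflammatory mediators that regulate TRP channels held 132 genes, Trpv2 and Trpv4 among them, of which 78 were tested, 18 rose and 29 fell, with a median of -0.04. The share of the 78 that passed was 60.3%, beside 51.2% of all tested genes. On library size alone the same list held 34 higher and 16 lower genes. Bdkrb2, the bradykinin B2 receptor, rose from 0.412 ± 0.292 to 5.07 ± 0.0770 CPM (n = 3), with 4 counts in the lowest library and 96 in the highest. F2rl1, the protease-activated receptor PAR-2, rose from 1.502 ± 0.261 to 4.08 ± 0.208 CPM (log2 fold change 1.45, SE 0.20, edgeR adjusted p = 0.000163). Both receptors are known to sensitise TRPV channels through phospholipase C, and both rose in the same libraries as Trpv4. Cyp2c29 fell from 2.83 ± 1.34 to 0.993 ± 0.251 CPM (-1.52, SE 0.39), one of many closely related Cyp2c genes whose reads could be split by the counting. Pla2g4c fell from 1.36 to 0.685 CPM (-0.98, SE 0.35), a call lost in 8 of 15 other fits, on library size alone, with DESeq2, in both FPKM fits and without GFP replicate 2 or any 1 of the CRE replicates.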
